A study of Arabidopsis thaliana with 18 samples.

Results

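TAS1c is a non-coding transcript of Arabidopsis thaliana that gives rise to trans-acting siRNAs (tasiRNAs). Its siRNAs were listed in the tasiRNA count table as rows named by locus, position on the transcript and strand flag, and the members described here are the rows whose name begins with TAS1c. They number 1157 of the 6242 rows of the table, 616 on the forward strand (flag 0, the strand of the transcript) and 541 on the reverse strand (flag 16). Of these, 140 had no read in any library. Together the TAS1c rows held 962379 reads, 34.9% of all TAS reads, of which 304747 came from total RNA and 657632 from AGO1-IP.

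The libraries were prepared from 7-day-old seedlings of the wild-type accession Col-0. One group was left untreated (control), another was held at 37°C for 1 h (heat stress, HS), and the third had 2 h at 22°C once the HS ended (recovery). In every condition small RNAs were sequenced from total RNA and from the RNA recovered with immunoprecipitated ARGONAUTE1 (AGO1-IP). With 3 biological replicates this gave 6 groups and 18 libraries, and the comparisons address whether HS altered the tasiRNAs or their loading into AGO1. Whole seedlings were used, so that fewer cells of a type and fewer siRNAs per cell cannot be told apart. The TAS1c reads per library ranged from 10532 to 115696, with the total RNA libraries numbered 1 as the 3 shallowest of their groups (control 17274 reads, HS 13754 reads, recovery 10532 reads). AGO1-IP HS 1 and AGO1-IP recovery 1 stood apart from the other AGO1-IP libraries in the share of TAS reads from TAS1c, and values without them are given with the locus results.

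A tasiRNA is made in steps. A miRNA guides AGO1 to cut the TAS transcript, SGS3 and RDR6 turn the cut fragment into double-stranded RNA, and DCL4 dices it from the cut end onwards into siRNA duplexes of about 21 nt whose strands overhang each other by 2 nt, so that the siRNAs of a TAS locus fall into a register counted from the cut. For TAS1 and TAS2 the trigger is the 22-nt miR173-5p. AGO1, the main slicer of plant miRNAs, is known for loading small RNAs that begin with uridine, whereas other first bases are favoured by other Argonautes. TAS1 siRNAs are known for directing cleavage of the HEAT-INDUCED TAS1 TARGET mRNAs, which have a role in thermotolerance.

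TAS1c is annotated as the non-coding RNA gene AT2G39675, on the minus strand of chromosome 2 from base 16537288 to 16538277 of TAIR10.1 (990 nt). A search of this transcript for the complement of miR173-5p, itself encoded on the plus strand of chromosome 3, found 1 site from transcript base 367 on with 2 mismatches, against 9 in the next best window. The mismatches lay opposite base 9 and base 15 of the miRNA counted from its 5′ end. The miRNA and the site are shown because they set the register, with capitals for miRNA bases 10 and 11 and for the site bases on either side of the cut that these predict.
miR173-5p (chr3:8236161-8236182, plus strand): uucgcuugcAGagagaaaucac
TAS1c site (chr2:16537890-16537911, minus strand): gugauuuuucuCUacaagcgaa

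The first base after the cut is transcript base 379, and the in-register forward rows therefore start at 379 and every 21 nt downstream of it, each of these 21-nt stretches being called a cycle. A row gives the leftmost transcript base of its reads, which is the 5′ end of a forward siRNA but the 3′ end of a reverse one. The reverse partner of a forward row, with 2-nt overhangs, is thus listed 2 positions before it (398 for 400). Read lengths are not in the table, so the first base of a reverse siRNA depends on the length assumed. The 10 rows with the largest mean share of TAS1c reads (main positions) are shown next as 21-nt words with the first base, which bears on AGO1 loading, in capitals.
TAS1c_442_0 (chr2:16537816-16537836, minus strand): Uucuaaguucaacauaucgac
TAS1c_461_16 (chr2:16537797-16537817, plus strand): Ccaaugucuuuucuaguucgu
TAS1c_400_0 (chr2:16537858-16537878, minus strand): Ucgguggaucuuagaaaauua
TAS1c_567_16 (chr2:16537691-16537711, plus strand): Aaguaacuguauuagcaacug
TAS1c_398_16 (chr2:16537860-16537880, plus strand): Auuuucuaagauccaccgaua
TAS1c_379_0 (chr2:16537879-16537899, minus strand): Uacaagcgaauagaccauuua
TAS1c_421_0 (chr2:16537837-16537857, minus strand): Uucuaaguccaacauagcgua
TAS1c_463_0 (chr2:16537795-16537815, minus strand): Gaacuagaaaagacauuggac
TAS1c_548_0 (chr2:16537710-16537730, minus strand): Uuucaagucgucuaaagaaca
TAS1c_440_16 (chr2:16537818-16537838, plus strand): Cgauauguugaacuuagaaua

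Read as 22 nt, the 4 reverse words among them gain a base at their 5′ end, which changes the first base of 3 of them to uridine.
TAS1c_461_16 as 22 nt (chr2:16537796-16537817, plus strand): Uccaaugucuuuucuaguucgu
TAS1c_567_16 as 22 nt (chr2:16537690-16537711, plus strand): Uaaguaacuguauuagcaacug
TAS1c_398_16 as 22 nt (chr2:16537859-16537880, plus strand): Aauuuucuaagauccaccgaua
TAS1c_440_16 as 22 nt (chr2:16537817-16537838, plus strand): Ucgauauguugaacuuagaaua

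The main positions held 76.3% of the TAS1c reads on average over the 18 libraries, and 41 rows held 90%. Of the 10, 8 were in register and lay in cycles 1 to 5, and the other two, TAS1c_548_0 and TAS1c_567_16, lay 1 nt beyond it in cycles 9 and 10. The words of TAS1c_442_0 and TAS1c_421_0, from neighbouring cycles, were identical at 17 of 21 bases. The TAS1c_421_0 word, known as siR255, also occurs in TAS1a and TAS1b, where its rows held 23053 and 22530 reads beside 28908 at TAS1c, which is 38.8% of the 74491 reads listed for this word. Multi-mapping reads may have been assigned to any of these rows, so the count of this siRNA at TAS1c is uncertain. In all, 48 TAS1c rows shared their 21-base word with another TAS locus, and they held 2.79% ± 0.49 (SD, n = 9) of TAS1c reads in total RNA and 3.78% ± 1.09 (SD, n = 9) in AGO1-IP.

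**Figure D1:**
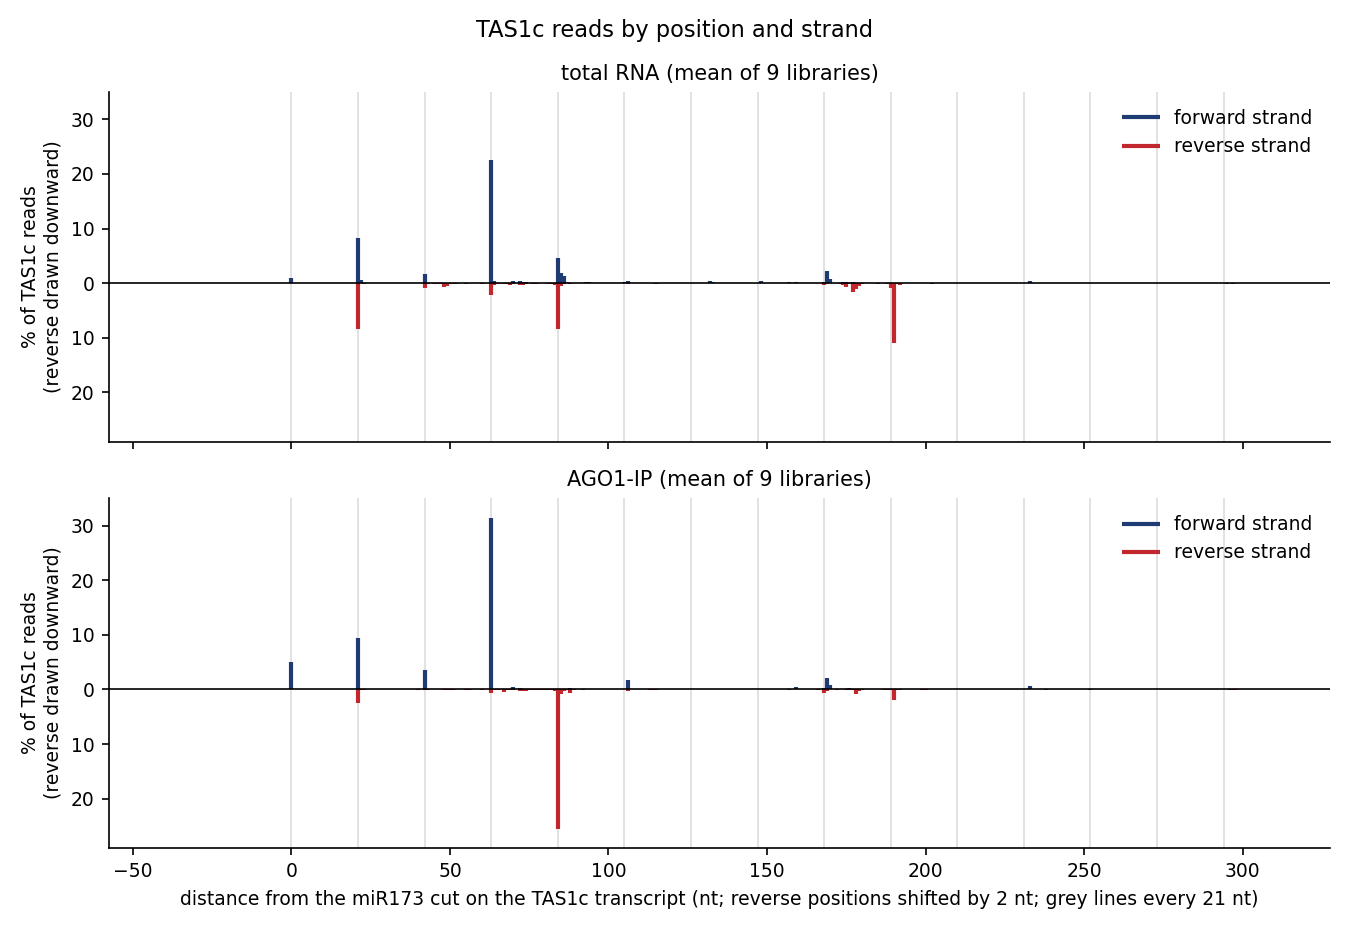
Percent of TAS1c reads at each position (y axis, mean of 9 libraries, reverse strand drawn downward) against the distance in nt from the miR173 cut (x axis), in total RNA (top) and AGO1-IP (bottom), with grey lines every 21 nt. The largest forward bar is TAS1c_442_0 in both kinds of library (22.6% and 31.4%), while the largest reverse bar is TAS1c_567_16 in total RNA (10.9%) and TAS1c_461_16 in AGO1-IP (25.5%).

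Reads were concentrated downstream of the cut. Only 0.221% ± 0.11 (SD, n = 9) of the TAS1c reads of total RNA and 0.173% ± 0.06 of those of AGO1-IP lay upstream of it. Cycles 1 to 5 held 72.2% ± 4.4 (SD, n = 9) in total RNA and 86.1% ± 1.4 in AGO1-IP, cycles 6 to 10 held 25.8% ± 4.0 and 12.1% ± 1.4, and cycles 11 to 15 held 1.60% ± 0.26 and 1.51% ± 0.27. Over the whole transcript, the exact register (offset 0 on either strand) held 59.7% of reads in total RNA, the next most read offset being 1 nt beyond it. That offset held 6.13% on the forward strand and 12.3% on the reverse strand.

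Among offsets 0 to 2, the only ones measured by distance, the fullest moved with distance from the cut. Within cycles 1 to 5, offset 0 held 79.9% ± 7.6 (SD, n = 9) of the reads in total RNA and 90.8% ± 1.2 in AGO1-IP. Within cycles 6 to 10 it held 6.32% ± 0.82 and 8.45% ± 1.63, and offset 1 held 56.1% ± 2.7 and 54.5% ± 1.9. Within cycles 11 to 15, offset 2 was the fullest of offsets 0 to 2, with 26.1% ± 6.3 in total RNA and 48.1% ± 7.8 in AGO1-IP. This order of offsets was the same in both kinds of library.

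A larger share of the reads lay in register in AGO1-IP than in total RNA. The register share was 79.3% on average in AGO1-IP (76.3% to 81.1% over 9 libraries) and 59.7% in total RNA (46.0% to 68.2%), without overlap. The difference of 19.6 percentage points had p = 0.00025 in an exact two-sided permutation test that exchanged the kind of library within each treatment, the smallest p that its 8000 arrangements can give. In control, HS and recovery the register share was 62.9% ± 5.8, 55.7% ± 10.1 and 60.5% ± 9.97 in total RNA and 80.0% ± 0.8, 79.7% ± 0.95 and 78.3% ± 2.5 in AGO1-IP (SD, n = 3). The treatments overlapped within each kind, and an exact test of 3 against 3 libraries cannot go below 0.1. The lowest value of each total RNA group belonged to the library numbered 1 (56.7%, 46.0% and 49.1%), and without these 3 libraries the difference was 15.1 points (exact permutation p = 0.001).

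**Figure D2:**
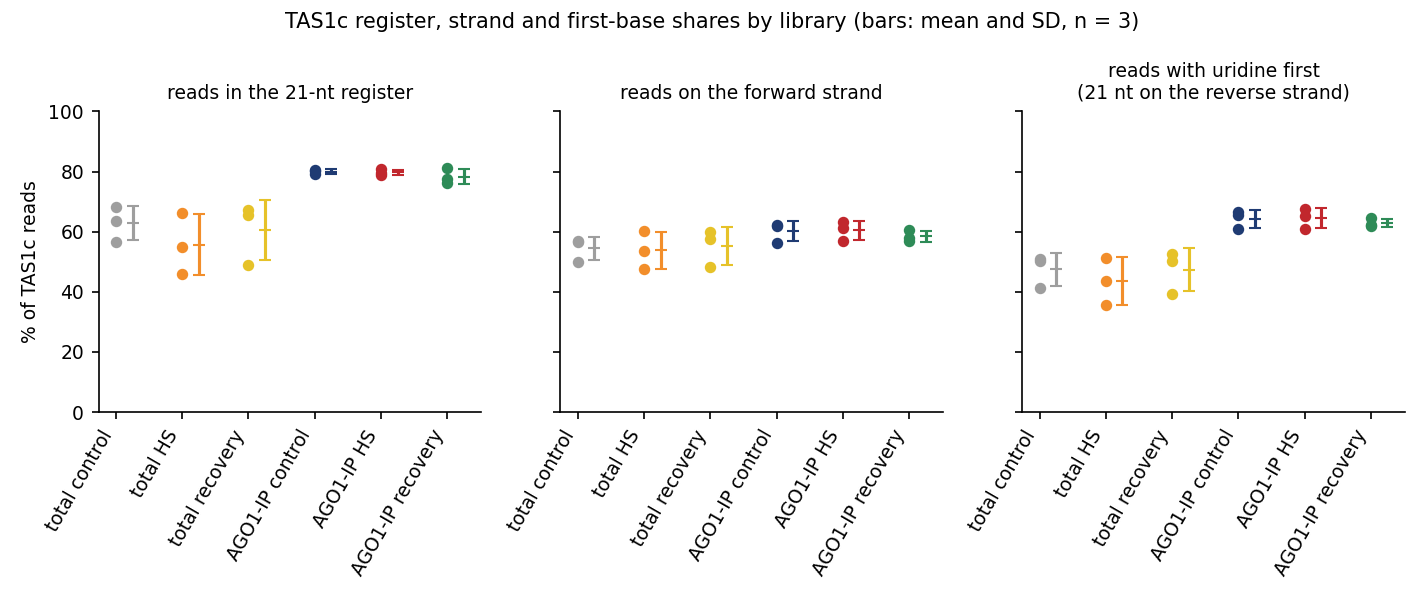
Percent of TAS1c reads (y axis) in the 21-nt register, on the forward strand and with uridine as first base, for each library of the 6 groups (points, with mean and SD beside them, n = 3). In the register and first-base panels the 9 AGO1-IP libraries lie above the 9 total RNA libraries, whereas the forward strand ranges overlap (56.4% to 63.2% against 47.7% to 60.1%).

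First bases differed between the kinds of library. Among forward reads, whose first base does not depend on length, 96.8% ± 0.7 (SD, n = 9) began with uridine in AGO1-IP and 72.9% ± 7.2 in total RNA (exact stratified permutation p = 0.00025). Forward reads that began with adenosine made up 1.79% ± 0.39 in AGO1-IP and 13.2% ± 4.2 in total RNA, and those with guanosine 0.397% ± 0.27 and 10.3% ± 2.0. For reverse reads the value depended on the length. Read as 21 nt, 15.2% ± 1.3 of them began with uridine in AGO1-IP and 13.3% ± 0.8 in total RNA, and 67.7% ± 4.6 and 29.1% ± 4.0 with cytidine. Read as 22 nt, 82.0% ± 2.7 and 61.4% ± 2.7 began with uridine. Over both strands the uridine share was 63.9% in AGO1-IP and 46.1% in total RNA for 21 nt, and 90.9% and 68.1% with 22 nt on the reverse strand (each exact permutation p = 0.00025). The lengths of the reverse siRNAs were not analysed here, so neither reading of the reverse strand can be preferred.

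The forward strand held 59.7% of TAS1c reads in AGO1-IP and 54.5% in total RNA, a difference of 5.17 points (exact stratified permutation p = 0.0198). With libraries paired by number, the same difference had p = 0.0742 in a sign-flip permutation test. The difference depended on the most abundant row and on the total RNA libraries numbered 1 as a set. It was -0.0772 points (p = 0.950, exact permutation) without the row TAS1c_442_0, and 2.22 points (p = 0.15, exact permutation) without those 3 libraries, while leaving out any 1 library gave 3.98 to 6.22 points (exact permutation p of 0.00675 to 0.0445).

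AGO1-IP was compared with total RNA for each position by edgeR's quasi-likelihood test, with the treatments given equal weight. Of the 1157 rows, 202 passed the filter on low counts, which a row can do through either kind of library alone. In AGO1-IP 57 of them were higher and 95 lower at an adjusted p under 0.05, beside 35.7% of all 852 TAS positions tested called higher and 42.1% called lower (77.8% called in either direction). The median log2 fold change was -0.67 over the TAS1c rows tested and -0.27 over all positions tested. Of the 17 in-register rows tested, 8 were higher and 8 lower (median -0.09), and of the 185 out of register 49 and 87 (median -0.68). These changes are relative to the other tasiRNAs, since libraries were scaled to TAS reads with TMM factors, which lay between 1.20 and 1.63 in total RNA and between 0.611 and 0.926 in AGO1-IP. The split of all TAS1c rows moved with the scaling. With the TAS1c reads themselves as library size (an alternative chosen after seeing the data) 41 rows were higher and 118 lower, the median fold change shifting by -0.55, and with miRNA plus TAS reads as library size 8 were higher and 155 lower, the median shifting by -1.80. RLE factors gave 51 higher and 102 lower with a shift of -0.17.

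Within cycle 4, which held the most abundant siRNA, TAS1c_442_0 was higher in AGO1-IP. It made up between 11.6% and 30.4% of the TAS1c reads of total RNA (median 22.7%, n = 9) and between 24.6% and 35.8% of those of AGO1-IP (median 32.0%). The ranges overlapped, with the total RNA libraries numbered 1 the lowest of their groups (control 17.4%, HS 11.6%, recovery 15.2%). Its log2 fold change was 0.99 ± 0.25 (SE, adjusted p = 0.00100), and it turned to -0.86 (adjusted p = 0.00798) with miRNA plus TAS reads as library size. Its partner strand TAS1c_440_16 made up 1.17% to 2.73% (median 2.05%) in total RNA and 0.442% to 1.49% (median 0.610%) in AGO1-IP, and fell by 1.07 ± 0.25 on the log2 scale (adjusted p = 4.26e-04).

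The duplex of cycle 5 showed the widest contrast between strands among the main positions. Its reverse strand TAS1c_461_16 was between 5.80% and 13.6% of TAS1c reads in total RNA (median 7.45%) and between 20.4% and 30.1% in AGO1-IP (median 24.2%), without overlap. The log2 fold change was 2.20 ± 0.19 (SE, adjusted p = 1.43e-10), and 0.40 (adjusted p = 0.102) with miRNA plus TAS reads as library size. Its forward strand TAS1c_463_0, whose word begins with guanosine, was between 3.32% and 7.18% in total RNA (median 4.38%) and between 0.0129% and 0.0681% in AGO1-IP (median 0.0307%). It had 14805 reads in total RNA and 197 in AGO1-IP, although the AGO1-IP libraries held more TAS1c reads, and fell by 6.68 ± 0.34 on the log2 scale (adjusted p = 1.57e-14), the largest fall among the TAS1c rows covered by the naming rule.

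In cycle 2 the strands were nearly equal in total RNA. The forward siRNA TAS1c_400_0 was 5.29% to 14.0% of TAS1c reads in total RNA (median 7.85%) and 6.39% to 15.3% in AGO1-IP (median 8.86%), with wide overlap. Its log2 fold change of 0.69 ± 0.24 (adjusted p = 0.0121) was not stable. The call was lost without the libraries total control 1 (0.48), total HS 1 (0.52), total HS 2 (0.54) or total recovery 1 (0.46), or with a minimum mean of 10 counts (0.30). The fold change was 0.15 (adjusted p = 0.477) with TAS1c reads as library size and turned to -1.13 (adjusted p = 3.78e-04) with miRNA plus TAS reads. Its partner TAS1c_398_16, which begins with adenosine at either length, was 6.35% to 11.6% in total RNA (median 8.32%) and 1.48% to 4.05% in AGO1-IP (median 2.42%), without overlap, and fell by 1.15 ± 0.27 on the log2 scale (adjusted p = 3.84e-04).

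The forward siRNAs of cycles 1 and 3 were higher in AGO1-IP. The first siRNA after the cut, TAS1c_379_0, was 0.342% to 2.03% of TAS1c reads in total RNA (median 0.885%) and 2.08% to 6.55% in AGO1-IP (median 5.49%), without overlap, with a log2 fold change of 2.90 ± 0.26 (SE, adjusted p = 3.29e-10). The siR255 row TAS1c_421_0 was 0.902% to 2.43% in total RNA (median 1.52%) and 1.69% to 5.09% in AGO1-IP (median 3.84%), and rose by 1.72 ± 0.23 (adjusted p = 2.08e-07), but was -0.07 (adjusted p = 0.814) with miRNA plus TAS reads as library size. For both, AGO1-IP HS 1 and AGO1-IP recovery 1 were the lowest AGO1-IP libraries, with 2.94% and 2.08% at TAS1c_379_0 and 2.05% and 1.69% at TAS1c_421_0.

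Further downstream, TAS1c_567_16, the most read reverse position of total RNA, was lower in AGO1-IP. It was 8.36% to 14.2% of TAS1c reads in total RNA (median 9.77%) and 1.47% to 3.61% in AGO1-IP (median 1.77%), without overlap, and fell by 1.86 ± 0.22 on the log2 scale (SE, adjusted p = 3.49e-08). Its word begins with adenosine at 21 nt and with uridine at 22 nt. The forward row TAS1c_548_0 was 1.50% to 3.22% in total RNA (median 2.38%) and 1.40% to 2.96% in AGO1-IP (median 1.97%). Its log2 fold change of 0.45 ± 0.23 did not pass the test (adjusted p = 0.0739), changed sign to -0.10 with TAS1c reads and to -1.37 with miRNA plus TAS reads as library size, and passed without AGO1-IP HS 3 (0.55, adjusted p = 0.0472).

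**Figure D3:**
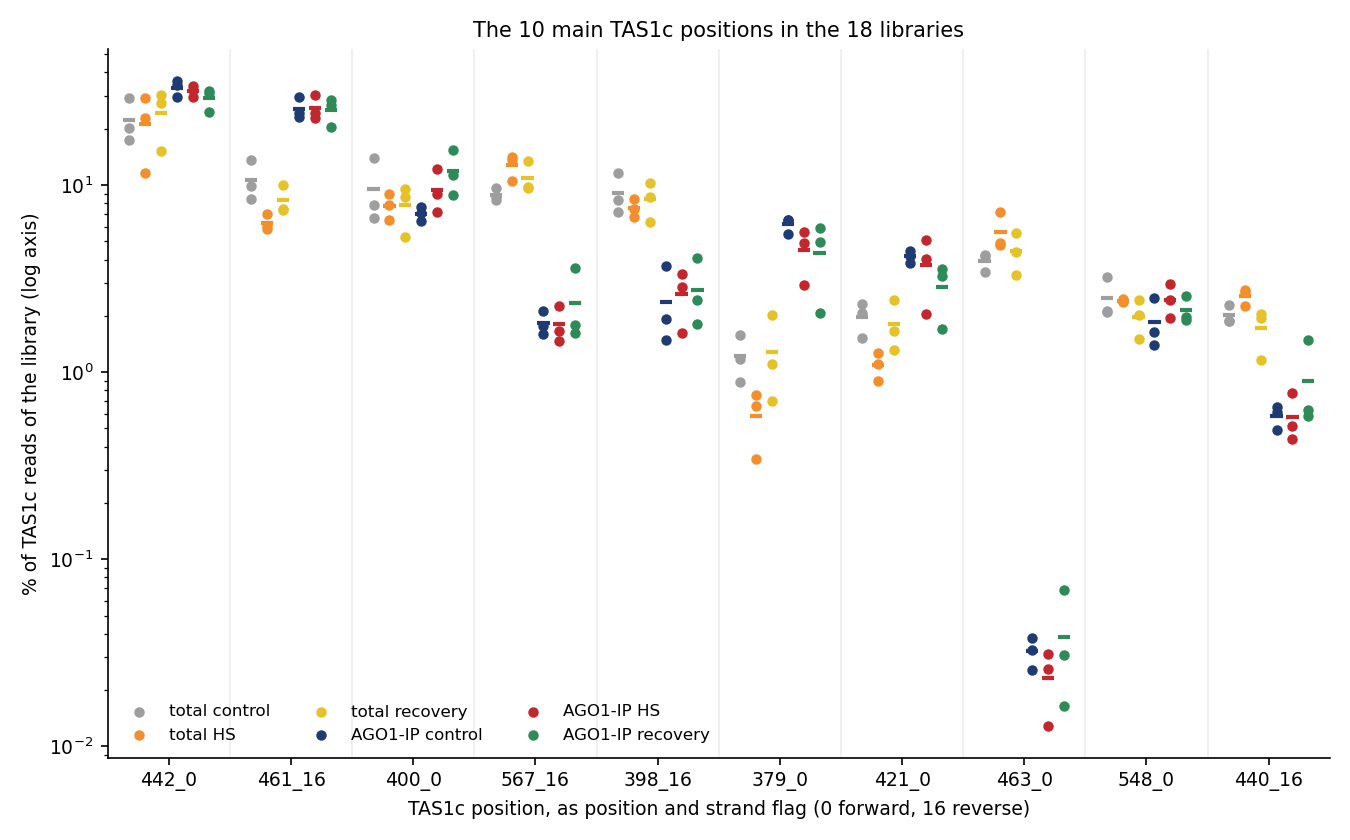
Percent of the TAS1c reads of a library (y axis, log scale) at each of the 10 main positions (x axis), with 1 point per library and a bar for the mean of the 3 libraries of a group. At TAS1c_461_16 and TAS1c_379_0 the AGO1-IP points lie above those of total RNA, at TAS1c_567_16 and TAS1c_398_16 below them, and at TAS1c_463_0 they lie at 0.0129% to 0.0681% while the total RNA points lie at 3.32% to 7.18%.

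Both strands of a duplex are made in equal number. This need not hold for cycle 1, whose reverse row starts at base 377, upstream of the cut. The forward share of each in-register pair was compared between the kinds of library, for the 6 cycles with at least 20 reads in every library. It differed in all 6 (exact two-sided permutation test within treatments, p adjusted over the 6 cycles at most 0.0005). In cycle 1 (TAS1c_379_0 with TAS1c_377_16) the median forward share was 96.0% in total RNA and 100.0% in AGO1-IP, in cycle 2 it was 48.2% and 79.1%, in cycle 3 66.4% and 99.3%, and in cycle 4 91.6% and 98.2%. In these 4 cycles the forward siRNA begins with uridine. In cycle 5, where it begins with guanosine, the median forward share was 37.0% in total RNA and 0.114% in AGO1-IP. In cycle 9 (TAS1c_547_0 with TAS1c_545_16), where both strands begin with uridine at either length, it was 47.5% and 32.3%. Among these 6 cycles the ranges over libraries overlapped only in cycle 9, where they were 36.0% to 70.0% in total RNA and 25.1% to 42.3% in AGO1-IP. Cycle 6 was not tested, as some total RNA libraries had fewer than 20 reads, and its strands did not follow the first base. Its forward row TAS1c_484_0 begins with adenosine and its reverse row TAS1c_482_16 with uridine at either length. The median forward share was 100.0% in total RNA (531 forward and 7 reverse reads) and 98.1% in AGO1-IP (659 and 19).

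**Figure D4:**
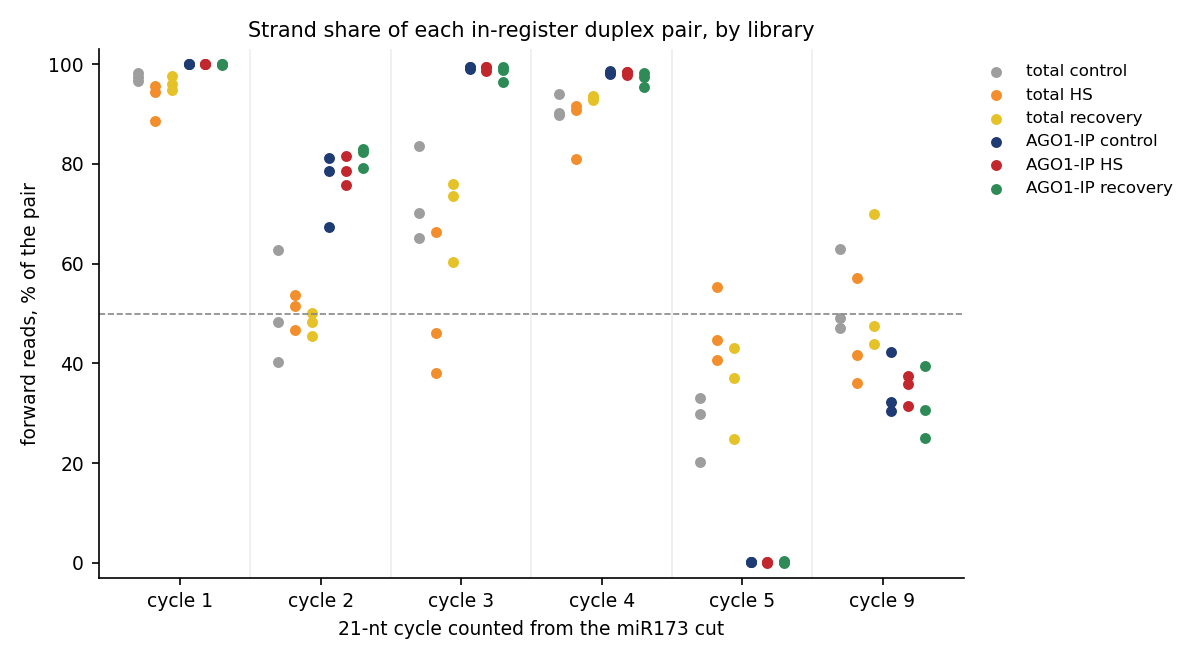
Forward reads as a percent of both strands of an in-register pair (y axis) in the 6 cycles with at least 20 reads in every library (x axis), 1 point per library, with a dashed line at 50%. The AGO1-IP points lie above the total RNA points in cycles 1 to 4 and below them in cycle 5, at a median of 0.114% against 37.0%.

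Rows were also grouped by first base, among those that passed the filter on low counts. Of the 33 forward rows that begin with uridine, 21 were higher in AGO1-IP and 2 lower, with a median log2 fold change of 0.99. This median was 0.48 with TAS1c reads as library size and -0.86 with miRNA plus TAS reads, under which 4 were higher and 16 lower. Of the 41 that begin with adenosine, 2 were higher and 31 lower (median -2.05), of the 11 with cytidine 2 and 6 (median -1.53), and of the 12 with guanosine 0 and 10 (median -4.32), and these medians stayed negative under both other library sizes. Among reverse rows read as 21 nt, 20 of 42 with uridine were higher and 8 lower (median 0.43), and 5 of 33 with adenosine were higher and 25 lower (median -1.86). With cytidine 5 of 16 were higher and 6 lower (median -0.28), and with guanosine 2 of 14 and 7 (median -0.85). The median for uridine was -0.09 with TAS1c reads and -1.38 with miRNA plus TAS reads as library size. Read as 22 nt, 12 of 36 reverse rows with uridine were higher and 15 lower (median -0.27). At that length the values were 8 of 38 and 20 with adenosine (median -0.81) and 5 of 17 and 7 with cytidine (median -0.76). Guanosine alone had a positive median there (0.89, 7 of 14 higher and 4 lower), which was 0.33 with TAS1c reads and -0.91 with miRNA plus TAS reads.

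Outside the main positions, the largest rises by the naming rule were at TAS1c_465_16 (3.29 ± 0.33 on the log2 scale, SE), TAS1c_675_0 (2.75 ± 0.38), TAS1c_558_0 (2.66 ± 0.45) and TAS1c_466_16 (2.61 ± 0.39), all with an adjusted p of at most 8.14e-06. With miRNA plus TAS reads as library size TAS1c_558_0 (0.89, adjusted p = 0.0752) and TAS1c_466_16 (0.84, adjusted p = 0.0692) were not called. Both passed the low-count filter of the AGO1-IP libraries but not that of total RNA, where they had only 38 and 45 reads. The row TAS1c_465_16, which lies 4 nt beyond the main reverse siRNA of cycle 5, made up 0.0362% to 0.237% of the TAS1c reads of total RNA (median 0.0945%) and 0.136% to 1.03% of those of AGO1-IP (median 0.764%). The lowest AGO1-IP values were again those of recovery 1 (0.136%) and HS 1 (0.233%). The largest falls, after TAS1c_463_0, were at TAS1c_551_16 (-5.45 ± 0.33), TAS1c_554_0 (-5.41 ± 0.54), TAS1c_473_0 (-4.94 ± 0.39) and TAS1c_472_0 (-4.91 ± 0.35), all with an adjusted p of at most 6.90e-09. These passed the low-count filter of the total RNA libraries but not that of AGO1-IP, where they had 35, 18, 41 and 31 reads over 9 libraries. The sizes of these falls thus rest on few reads. Each of these 4 rows lay in cycle 5 or 9 and out of register, began with adenosine or guanosine when read as 21 nt, and did not overlap between the kinds of library. At TAS1c_551_16, for example, the share was 0.237% to 0.617% in total RNA and 0.00235% to 0.00933% in AGO1-IP.

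As a locus, TAS1c was not called between AGO1-IP and total RNA. Its reads were summed and tested beside the miRNAs and the other TAS loci, where 79.6% of 275 rows were called. The log2 fold change was 0.18 ± 0.21 (SE, adjusted p = 0.413), but its sign and call depended on the scaling. It was -0.49 (adjusted p = 0.0257) with RLE factors, -0.49 (adjusted p = 0.0209) in DESeq2 and -1.27 (adjusted p = 7.91e-07) with no factor. In the same fit the trigger miR173-5p was higher in AGO1-IP by 3.19 ± 0.33 (adjusted p = 1.10e-08), with 1496 to 2633 CPM in total RNA and 2857 to 43878 CPM in AGO1-IP (lowest in recovery 1 and HS 1), and its partner strand miR173-3p by 2.63 ± 0.40 (adjusted p = 3.02e-06). Of the other loci cut by miR173, TAS2 was higher by 1.58 ± 0.23 (adjusted p = 1.66e-06, but 0.098 and not called with no factor), TAS1b was lower, with -0.67 ± 0.20 (adjusted p = 0.00415), and TAS1a was at -0.01 ± 0.23 (adjusted p = 0.958). With RLE factors, in DESeq2 and with no factor TAS1a was called lower (-0.69, -0.69 and -1.47). Among loci with other triggers, TAS3a (1.05 ± 0.25) and TAS4 (1.01 ± 0.25) were called higher, but neither was called with RLE factors (0.33 and 0.36) or in DESeq2 (0.33 and 0.36), and both fold changes were negative with no factor. TAS3b was lower (-2.10 ± 0.31).

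TAS1c took another share of the TAS reads in each kind of library. It was 39.9% to 44.9% in the 9 total RNA libraries, and in AGO1-IP 29.6% to 32.3% except for HS 1 (36.8%) and recovery 1 (40.9%). These libraries also had the lowest TAS2 shares of the AGO1-IP libraries (38.9% and 32.8%), and their part in the results was measured by leaving both out, an alternative chosen after seeing the data. Without them, 58 TAS1c rows were higher and 106 lower in AGO1-IP, the locus was at 0.23 (adjusted p = 0.301) and the register share differed by 19.6 points (p = 0.001, exact permutation).

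HS and recovery were compared with control within each kind of library. The test called 0 of the 165 TAS1c rows tested in total RNA and 0 of the 167 in AGO1-IP, for HS or recovery against control and for recovery against HS. Of all positions tested, 0% were called in these comparisons, except for 0.134% in HS against control in AGO1-IP. The loading change is the treatment effect in AGO1-IP minus that in total RNA, tested as an interaction. It was called at 0 of 202 TAS1c rows for HS and for recovery (0% of 852 positions). DESeq2 also called 0 TAS1c rows in each of these comparisons. With the replicate number as a block in edgeR, 14 of the 165 rows were called for HS against control in total RNA, beside 5.57% of all positions. An unadjusted p under 0.05 was reached by 18 of the 165 rows for HS against control in total RNA, near the 9.75% of all positions. The same was 1 row for recovery against control (0.619% of all positions) and 7 for recovery against HS (2.94%). In AGO1-IP it was 3 rows for HS against control (2.4%), 2 for recovery against control (3.2%) and 5 for recovery against HS (2.8%), and for the loading change 4 rows for HS (3.52%) and 3 for recovery (2.46%).

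The locus sum was not called either. In total RNA the control libraries held 3.46%, 3.67% and 5.16% of miRNA plus TAS reads in TAS1c rows, the HS libraries 3.87%, 6.23% and 5.26% and the recovery libraries 2.79%, 6.36% and 5.08%, with overlap throughout. The log2 fold change was 0.32 ± 0.38 (SE, adjusted p = 0.699) for HS and 0.20 ± 0.38 (adjusted p = 0.998) for recovery against control, where 0% of 241 miRNAs and loci were called. In AGO1-IP the control libraries held 1.89%, 2.21% and 1.43%, the HS libraries 2.11%, 2.24% and 2.11% and the recovery libraries 1.93%, 1.76% and 1.71%. The fold changes against control were 0.24 ± 0.34 (adjusted p = 0.995, 1.8% of 222 called) and -0.13 ± 0.34 (adjusted p = 0.921, 0.45% called), the latter with a changed sign under RLE factors. Recovery against HS gave -0.13 ± 0.38 (adjusted p = 0.941) in total RNA and -0.36 ± 0.34 (adjusted p = 0.928, 0.45% called) in AGO1-IP. The recovery and HS comparisons share their control libraries. The trigger miR173-5p, with -0.67 ± 0.25 for HS against control in total RNA (adjusted p = 0.326), was not called either.

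In total RNA some rows did not overlap between HS and control, at a share near that of all positions. Measured as a share of TAS reads, 34 of the 165 rows (20.6%) did not overlap between the groups, 15 higher and 19 lower after HS, beside 16.6% of all 646 positions tested. For the other comparisons this was 6.67% of TAS1c rows for recovery against control (5.42% of all positions) and 11.5% for recovery against HS (8.98%) in total RNA. In AGO1-IP it was 4.19% for HS against control (9.08%), 7.19% for recovery against control (7.74%) and 6.59% for recovery against HS (5.47%).

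Of the main positions, TAS1c_461_16 was 13.6%, 9.86% and 8.44% of TAS1c reads in control total RNA and 6.99%, 6.08% and 5.80% after HS, lower in each HS library, with a log2 fold change of -0.77 ± 0.27 (SE, adjusted p = 0.489). The row TAS1c_379_0 was 1.59%, 0.885% and 1.18% in control against 0.342%, 0.658% and 0.756% after HS (-1.01 ± 0.41, adjusted p = 0.489). The siR255 row TAS1c_421_0 was 2.30%, 1.52% and 2.07% in control against 0.902%, 1.10% and 1.27% after HS (-0.84 ± 0.31, adjusted p = 0.489). These 3 rows lay lower after HS without overlap. In the other direction, TAS1c_567_16 was 9.63%, 8.36% and 8.67% in control against 14.2%, 13.6% and 10.6% after HS (0.49 ± 0.26, adjusted p = 0.619), and TAS1c_463_0 was 3.43%, 4.21% and 4.19% in control against 4.79%, 4.90% and 7.18% after HS (0.50 ± 0.37, adjusted p = 0.654). None of the 5 passed the test without a block, and the remaining 5 main positions overlapped between HS and control. Overlap is judged here on shares of TAS1c reads, which depend on one another because they add up to the whole. The 16.6% of all positions without overlap was counted on shares of TAS reads and is not a like measure. With the replicate number as a block, TAS1c_461_16 (-0.76, adjusted p = 0.0451) and TAS1c_421_0 (-0.83, adjusted p = 0.0441) were called lower after HS, beside 5.57% of all positions called. After recovery all 10 main positions overlapped with control in total RNA. In AGO1-IP the 10 overlapped between HS and control, while after recovery TAS1c_400_0 was higher and TAS1c_421_0 lower than in control without overlap (0.80 ± 0.35 and -0.57 ± 0.36, each adjusted p = 0.979).

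In the cycle 5 pair of TAS1c_463_0 and TAS1c_461_16 the forward share in total RNA was 20.2%, 29.9% and 33.2% for control, 40.7%, 44.6% and 55.3% for HS, and 24.8%, 37.0% and 43.2% for recovery. The HS libraries lay above control without overlap and the recovery libraries overlapped with both. This pair consists of rows already listed above as not overlapping, so it is not a separate observation. In the cycle 3 pair of TAS1c_421_0 and TAS1c_419_16 the values were 70.2%, 65.1% and 83.6% for control, 38.0%, 46.0% and 66.4% for HS and 73.6%, 60.4% and 76.1% for recovery, with overlap between HS and control. In the cycle 1 pair of TAS1c_379_0 and TAS1c_377_16 they were 98.2%, 97.4% and 96.6% for control, 88.7%, 94.4% and 95.7% for HS and 97.7%, 94.9% and 96.0% for recovery, so that here the HS libraries lay below control without overlap. The reverse strand of this pair had only 5 to 21 reads per total RNA library. Its row starts upstream of the cut, so equal numbers of both strands cannot be assumed. The pairs of cycles 2, 4 and 9 overlapped between HS and control. An exact test of 3 against 3 libraries cannot give less than 0.1, and none was run on these pairs. How often pairs of other TAS loci lay without overlap was not counted.

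**Figure D5:**
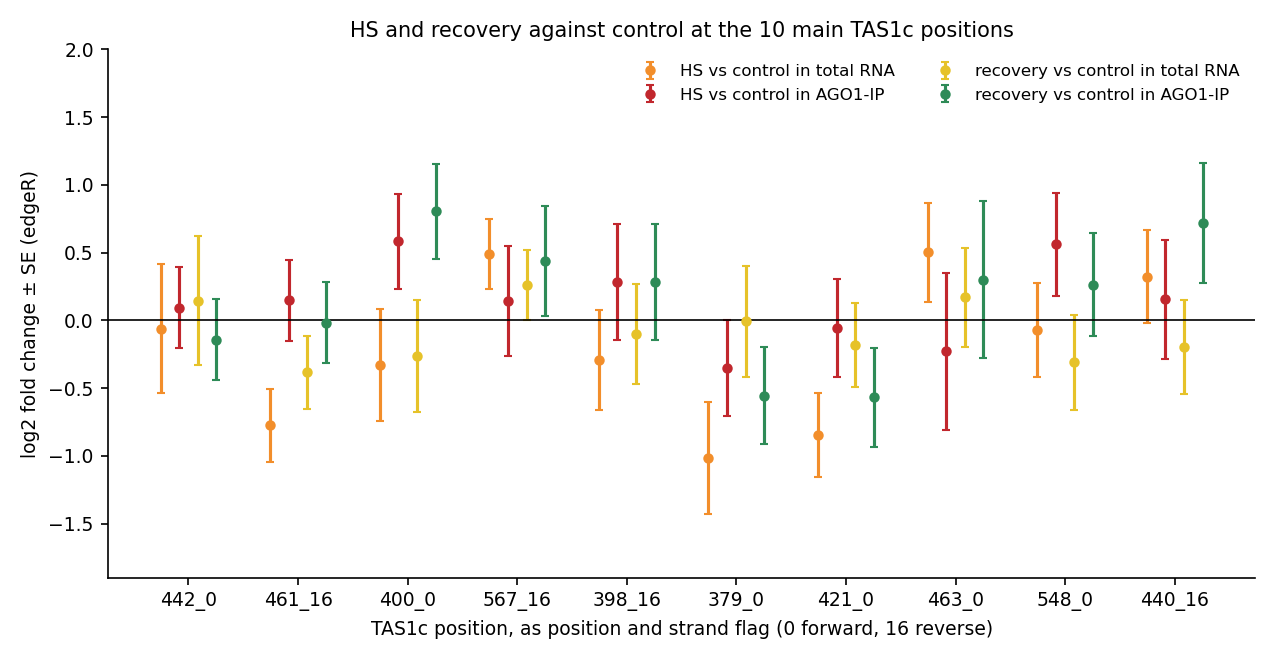
Log2 fold change of HS and of recovery against control (y axis, points, with bars for the SE of edgeR's fit) at the 10 main positions (x axis), in total RNA and in AGO1-IP. The estimates, from the fit without a replicate block, lie between -1.01 and 0.80 and none passed the test at an adjusted p of 0.05.

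A single low-count row stood out between HS and recovery in total RNA. The replicate numbers were taken to pair the libraries of these groups, from correlations in these same data (0.487, 0.241 and 0.576). The call with a block is thus not independent of that choice, and the block was fitted with the control libraries included. With the number as a block TAS1c_380_16 was called lower after recovery than after HS (-3.58 ± 0.75, adjusted p = 0.0168, with 0.155% of all positions called). Without the block it was not called (-3.51 ± 0.72, adjusted p = 0.250). This reverse row, named after its values were seen, lies 3 nt beyond the register point of cycle 1 and had 2, 3 and 2 reads in the control libraries, 7, 26 and 24 in the HS libraries and 0, 4 and 1 in the recovery libraries. It had 0 reads in the 9 AGO1-IP libraries, which allows a share of up to 0.000456% of their TAS1c reads. These limits and the intervals of shares cover counting error only. In AGO1-IP, where the numbers were also taken to pair HS with recovery, the block called 0 rows.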

How the data were processed

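Small RNA reads of 18 libraries (3 biological replicates in each of 6 groups) were processed by the authors as follows. Per the labels and methods, libraries were made from 100 ng of RNA (RealSeq v2, 15 cycles of PCR), adapters were removed with Cutadapt 2.9, reads of 18 to 34 nt were kept, and Bowtie2 mapped them to TAIR10. The files deposited by the authors hold raw read counts without normalisation, for 422 miRNAs and 6242 tasiRNA positions. How multi-mapping reads were counted is not given in the sources used here, and no molecular identifiers are described. All columns were assigned to a library by name and 0 were left unused. Whether the replicates came from separate cultures is not detailed, so that p-values measure the spread between these samples. Library sizes are sums of miRNA reads (321918 to 5745126) or TAS reads (26411 to 383351) and are not the full sequencing depth. Positions were matched to the TAS1c transcript of TAIR10.1 (RefSeq), and the 21-base words were read from that genome. Only 2 rows, with 9 reads, lay within 18 bases of the transcript's end.

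Positions were tested in edgeR 4.0.16 (R 4.3.3) with glmQLFit (robust) and glmQLFTest, TMM factors, filterByExpr and Benjamini-Hochberg adjustment over all TAS positions tested, at 0.05. The position test was tried on simulated counts for HS against control in total RNA and for AGO1-IP against total RNA, without a replicate block. The other tests were not tried in this way. Treatments were compared within the 9 libraries of a kind, and AGO1-IP with total RNA in a fit of all 18. TAS loci were summed and tested beside the miRNAs. Shares are percents of the TAS1c reads of a library, compared by exact stratified permutation. The widest 95% Wilson interval had a half-width of 0.955 percentage points for a share over all TAS1c reads and 0.686 for a named position.

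Named positions were the 10 with the largest mean share and, among called rows averaging 20 or more counts, the 5 largest rises and falls in AGO1-IP, plus any called under HS, recovery or loading change. The members and lists were chosen with earlier results of these data known. Alternatives were RLE factors, DESeq2 1.42.0, other filters and library sizes, rows left out, a replicate block and each library left out in turn. Chosen after seeing the data were TAS1c reads as library size, and leaving out AGO1-IP HS 1 with AGO1-IP recovery 1 or the total RNA libraries numbered 1. Replicates differed beyond counting noise (chi-square per degree of freedom 5.53 to 47.1), so none was merged. Same-numbered libraries deviated together between recovery and control (correlations 0.46, 0.185 and 0.519) and between recovery and HS (0.487, 0.241 and 0.576) in total RNA, and between recovery and HS in AGO1-IP (0.559, 0.359 and 0.234), every pair being over 0.1, so that the numbers were taken to pair these groups. The pairing comes from this check, not from the labels.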

Additional observations from a re-analysis of the deposited data

How the results depend on the processing

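Over all alternatives, counts of called TAS1c rows stayed within 1.5 times in 237 values and moved in 6, the TAS1c locus kept sign and call in 115 and changed sign in 14, shares kept both in 70 and did not in 5, and named positions or loci kept both in 806, changed sign in 38 and changed call only in 22. With no filter 86 rows were higher in AGO1-IP, and with miRNA plus TAS reads as library size 8 were higher and 155 lower. Without the filter 134 were lower, and with a mean of at least 10 counts 47 were higher and 77 lower. Leaving out 1 library gave 52 to 62 higher and 95 to 112 lower. The causes were not tested.

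By the check of deviations, replicate numbers did not pair HS with control (in total RNA the same-number correlations were 0.417, -0.039 and 0.531) nor AGO1-IP with total RNA. Yet in total RNA both HS and control were taken as paired with recovery by number, so whether they pair with each other is not settled. The paper states that total RNA and AGO1-IP libraries came from the same biological replicates. Whether the numbers match these replicates is not settled either. With the number as a block, 14 TAS1c rows were called for HS against control in total RNA against 0 without it, beside 5.57% of all positions, among them TAS1c_380_16, TAS1c_461_16 and TAS1c_421_0, and 1 for recovery against HS (0.155% of all positions). For HS against control in total RNA, replicate 2 did not correlate best with its own number. The block changed no other count of calls by over 1.5 times. Recovery against HS in AGO1-IP gave 0 to 1 calls with 1 library left out, the call, without AGO1-IP recovery 2, being TAS1c_549_16 (2.69, adjusted p = 0.0329, against 0.283 with all libraries), which was named after its values were seen.

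The forward strand difference was -0.0772 points without the most abundant row, 3.90 without rows shared with another TAS locus, 5.17 with libraries paired by number (sign-flip permutation p = 0.0742), 4.69 without AGO1-IP HS 1 and AGO1-IP recovery 1, and 2.22 without the total RNA libraries numbered 1. It was 3.98 to 6.22 with 1 library left out. The register difference was 9.06 to 21.6 points over its alternatives that count positions otherwise.

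For AGO1-IP against total RNA, the TAS1c locus was at -0.49 with RLE factors and in DESeq2 and at -1.27 with no factor, TAS3a at -0.46 and TAS4 at -0.42 with no factor, and TAS1a at 0.0127 with the block, 0.0695 without AGO1-IP HS 1 and AGO1-IP recovery 1, and -0.16 to 0.11 with 1 library left out. With miRNA plus TAS reads as library size TAS1c_442_0 was at -0.86, TAS1c_400_0 at -1.13, TAS1c_421_0 at -0.0681 and TAS1c_548_0 at -1.37, and TAS1c_548_0 was at -0.0982 with TAS1c reads. For recovery against control in AGO1-IP the locus was at 0.0805 with RLE factors and in DESeq2, 0.0786 with no filter, and -0.18 to 0.17 with 1 library left out. In total RNA that range was -0.14 to 0.52 for recovery against control and -0.47 to 0.19 for recovery against HS.

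For HS against control in total RNA, TAS1c_442_0 (-0.06) was at 0.011 with RLE factors and in DESeq2, 0.0636 with no filter, 0.0340 with a mean of at least 10 counts, 0.26 with miRNA plus TAS reads, 0.11 with 18 libraries in 1 fit, 0.14 without the total RNA libraries numbered 1 and -0.47 to 0.30 with 1 library left out. The row TAS1c_400_0 was at 0.0324 and TAS1c_398_16 at 0.014 with miRNA plus TAS reads, and TAS1c_400_0 at -0.57 to 0.0822 with 1 library left out. The row TAS1c_548_0 was at 0.0043 with no filter, 0.0360 with a mean of at least 10 counts, 0.31 with miRNA plus TAS reads, 0.10 with 18 libraries in 1 fit and -0.23 to 0.19 with 1 library left out. None of these values for HS passed the test.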
